A study of Homo sapiens with 40 samples.

Results

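BEZ235 and GDC0941, each at the concentration labelled max, were compared in A2058 cells, an established human melanoma line. The comparison used 8 arrays of the 40 in the series, namely the 4 whose titles give BEZ235 at max and the 4 whose titles give GDC0941 at max (written GCD0941 there). Every culture was treated once for 24 hours in a high-glucose medium with serum, and each group held 4 samples labelled as biological replicates. The other groups used were the DMSO controls (4 arrays) and both compounds at the lower levels labelled IC50 and IC90 (4 arrays each). BKM120, the remaining compound, entered the estimate of the spread between replicates and the mean signal by which probe sets and genes were chosen. The sources used here give neither the molar concentrations nor the response behind the IC names, so the compounds were matched by the name of the level only. A single cell line was used, and p-values measure the spread between samples of that line.

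Class I phosphoinositide 3-kinases (PI3K) make the membrane lipid that recruits and activates the kinase AKT, which holds FOXO transcription factors out of the nucleus and activates the kinase complex mTORC1. mTORC1 in turn promotes translation, the making of ribosomes and the processing of SREBP, the transcription factors of the genes for sterol and fatty acid synthesis. GDC0941 (pictilisib), a thienopyrimidine, inhibits the class I PI3K enzymes, and BEZ235 (dactolisib), an imidazoquinoline, inhibits both these and mTOR itself. The comparison asks which transcripts separate the dual inhibitor from the inhibitor of PI3K at max. Because the molar concentrations are not known here, the design cannot tell the targets of the compounds from their doses.

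Levels are given as log2(signal + 16), where signal is the deposited array intensity, and array values are listed from replicate 1 to replicate 4. A difference is BEZ235 minus GDC0941 on that scale with its standard error (SE), a fold is its antilog and so understates the ratio for dim genes, and a gene was called at a limma adjusted p under 0.05. The ratio of 3' to 5' signal of actin, a measure of RNA integrity, was 2.01 to 2.29 with BEZ235 and 1.75 to 2.1 with GDC0941 (2-sided exact permutation test, p = 0.0857, adjusted over 2 control genes 0.171), and that of GAPDH was 1.05 to 1.16 and 1.12 to 1.26 (exact p = 0.286). Each of the 8 arrays correlated with its own group at 0.9923 to 0.9951. Among the other arrays of the series, replicate 3 of BEZ235 at IC50 stood apart (called the degraded array below) with an actin ratio of 27.2, against at most 2.33 on all others. The melanocyte genes MITF, SOX10, PMEL, MLANA, TYR, TYRP1 and S100B were all measured above the filter, with a summed signal of 7843 to 8299 with BEZ235, 9507 to 10411 with GDC0941 and 7027 to 7456 with DMSO. Of 27 markers of other cell types, 11 passed the filter, 6 of them called between the compounds (summed signal of all 27: 2750 to 2868, 2642 to 2726 and 2796 to 2933, in the same order). The brightest with DMSO were LUM (mean signal 1200), KRT18 (1050), LYZ (188) and ACTA2 (109), with LUM lower with BEZ235 (-0.4), LYZ lower (-0.38), KRT18 higher (0.58) and ACTA2 not called, and their part in the results was not tested. PTPRC, CD3E, CD14, EPCAM, CDH5 and HBB never exceeded a signal of 8. Other endothelial and epithelial markers did, KDR and PECAM1 reaching 44.5 and 22.5 and KRT8 and KRT14 reaching 64.1 and 73.1. ALB reached 108 on its brightest array.

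Of 11865 genes tested, 4346 differed between the compounds at max (36.6%), 2222 higher with BEZ235 (18.7%) and 2124 lower (17.9%). Most differences were small: 120 genes differed at least 2-fold (1.01%), and that number depended on the constant added before the logarithm, being 268 with 1 and 36 with 64 in place of 16. Without replicate 3 of BEZ235 at IC50, which widens the pooled spread, 5440 genes were called, 2773 higher and 2667 lower. The 4 BEZ235 arrays lay entirely above the 4 GDC0941 arrays for 2324 genes (19.6%) and entirely below them for 2173 (18.3%). Against DMSO, whose arrays both compounds share, BEZ235 changed 6868 genes (57.9%), of which 3882 rose (32.7%) and 2986 fell (25.2%). GDC0941 changed 5204 (43.9%), of which 3022 rose (25.5%) and 2182 fell (18.4%). The median difference between the compounds over all genes tested was 0.01. This median and the shares in this paragraph are the background for the counts and medians of every gene list below.

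The differences at max were partly those of the lower levels. At IC90 the compounds differed in 5100 genes (43%), 2724 of them higher with BEZ235 (23%) and 2376 lower (20%). At IC50 they differed in 4021 (33.9%), 2163 higher (18.2%) and 1858 lower (15.7%), and without the degraded replicate 3 of BEZ235 in 3995 (1944 higher and 2051 lower). Of the 2222 genes higher with BEZ235 at max, 1637 (73.7%) were also higher at IC90, which is 60.1% of the genes higher there, and 791 (35.6%) at IC50. Of the 2124 lower genes, 1522 (71.7%) were also lower at IC90 and 830 (39.1%) at IC50. Calls in the opposite direction numbered 23 and 12 at IC90, and 128 and 118 at IC50. Of the 120 genes that differed at least 2-fold, 117 were called in the same direction at IC90 and 72 at IC50. Over all 3 levels, 126 genes (1.06%) had all 12 BEZ235 arrays above all 12 GDC0941 arrays and 187 (1.58%) had them below, and without the degraded array these were 195 and 305. Because only the names of the levels match, GDC0941 at max was also set against the lower levels of BEZ235. It differed from BEZ235 at IC90 in 3594 genes (30.3%; 14.9% higher and 15.4% lower with BEZ235) and from BEZ235 at IC50 in 2470 (20.8%; 10.1% and 10.7%).

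**Figure D1:**
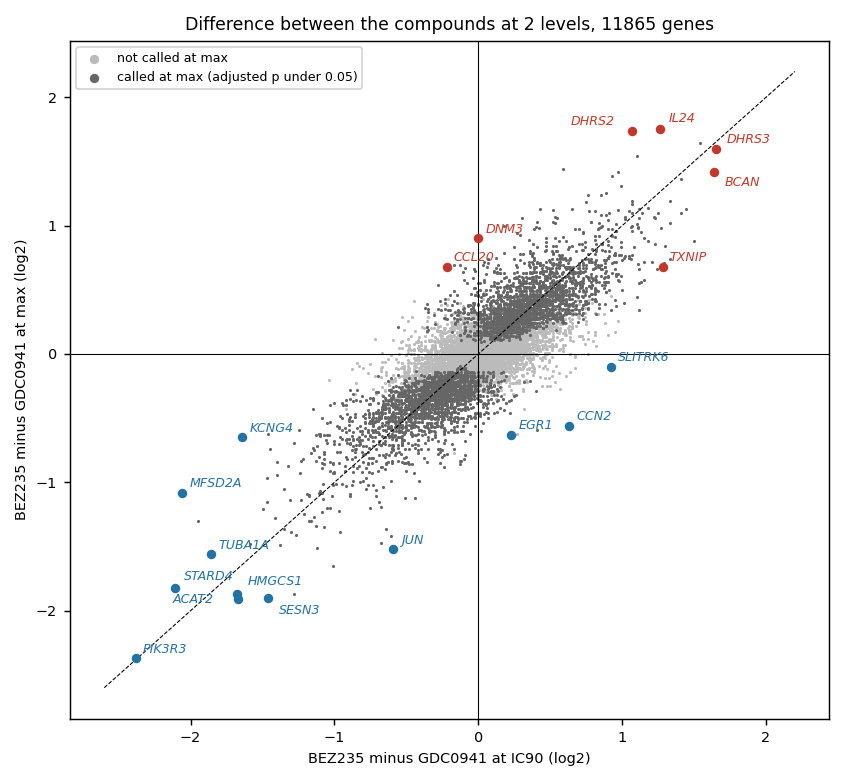
Difference between BEZ235 and GDC0941 at IC90 (horizontal, log2) against that at max (vertical, log2) for the 11865 genes tested, with dark points for the 4346 genes called at max and a dashed line of equality. PIK3R3 lies on the line at the far lower left, IL24 and DHRS2 lie above it at the upper right, and CCN2, EGR1 and CCL20 lie in quadrants where the sign of the difference is not the same at both levels.

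The genes of cholesterol synthesis and uptake were the list most often lower with BEZ235 of the 31 described here. Of its 23 tested genes, 18 were lower with BEZ235 and none higher by limma (19 and 0 at an unadjusted p under 0.05), against 17.9% and 18.7% of all genes tested, and the median difference was -0.73. Their called differences ran from -1.91 to -0.19. Against DMSO, 17 of the 23 rose with GDC0941 and none fell (17 and 0 by limma at an unadjusted p under 0.05, median change 0.44), whereas 3 rose and 10 fell with BEZ235 (median change -0.15).

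The 250 bases before the transcription start of these genes were read from RefSeq promoters (GRCh38.p14), in which 21 of the 23 tested genes had at least 1 entry. SREBP factors act at promoters together with the factor NF-Y, which binds the CCAAT box. The windows below are examples, picked without a fixed rule from genes at least 2-fold lower with BEZ235. Each comes from the first entry of its gene with CCAAT in the 250 bases, so the presence of CCAAT was fixed by that choice. The windows show the letters searched in capitals: CCAAT on either strand (ATTGG where it lies on the other strand), the sterol element core CACNCCAC and the E-box CACGTGA. They cover bases -190 to -41 from the start, 5′ to 3′ on the strand of the gene, for HMGCS1 at chr5:43313453-43313602 (minus strand), STARD4 at chr5:111512576-111512725 (minus strand), INSIG1 at chr7:155297688-155297837 (plus strand) and SREBF2 at chr22:41832915-41833064 (plus strand).
HMGCS1: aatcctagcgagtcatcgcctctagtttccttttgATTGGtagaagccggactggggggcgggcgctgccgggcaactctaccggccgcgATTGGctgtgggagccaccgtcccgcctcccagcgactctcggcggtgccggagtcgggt
STARD4: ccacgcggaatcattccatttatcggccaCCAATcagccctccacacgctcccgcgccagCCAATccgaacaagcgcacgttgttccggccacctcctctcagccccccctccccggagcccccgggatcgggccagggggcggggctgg
INSIG1: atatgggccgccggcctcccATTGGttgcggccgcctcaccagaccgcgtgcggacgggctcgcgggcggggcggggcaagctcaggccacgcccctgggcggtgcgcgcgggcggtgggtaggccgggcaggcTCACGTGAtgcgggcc
SREBF2: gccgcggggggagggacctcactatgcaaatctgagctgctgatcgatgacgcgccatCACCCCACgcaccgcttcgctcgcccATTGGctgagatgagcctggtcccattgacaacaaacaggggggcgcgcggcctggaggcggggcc

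In HMGCS1 the CCAAT letters began at -155 and -100, both on the other strand, and in STARD4 at -161 and -130. SREBF2 held the sterol element core at -132, 26 bases before its CCAAT letters at -106. INSIG1 held CCAAT letters at -170 and, at -56 and -55, the E-box on each strand, the matches overlapping in 1 palindrome. CCAAT was found before the start of 18 of the 21 genes of the list (85.7%), of 4092 of 9780 tested genes with an entry (41.8%), of 815 of the 1776 such genes that were lower with BEZ235 (45.9%), and of 37% of all 27305 genes in the promoter set. The sterol element core was found in 4 of the 21 (19%) against 6.31% of the tested genes, and the E-box in 2 (9.52%) against 6.91%. Of the 16 genes of the list that were lower with BEZ235 and had an entry, 16 held CCAAT and 3 the sterol element core. A gene with several starts had several windows in which to match, and a match is a run of letters only.

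HMGCS1, the synthase that makes HMG-CoA for the mevalonate pathway, stood at 8.72, 8.75, 8.64 and 8.74 with BEZ235 and at 10.53, 10.58, 10.66 and 10.58 with GDC0941. The DMSO arrays (9.57 to 9.77) lay between the compounds without touching either. The difference was -1.87 (SE 0.05, adjusted p = 9.0e-26), a level 3.66-fold higher with GDC0941. HMGCS1 fell by 0.96 with BEZ235 (adjusted p = 2.0e-17) and rose by 0.91 with GDC0941 (adjusted p = 2.6e-16).

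ACAT2, which makes the acetoacetyl-CoA used by that synthase, stood at 8.49, 8.42, 8.49 and 8.56 with BEZ235 and at 10.32, 10.34, 10.59 and 10.34 with GDC0941. The difference was -1.91 (SE 0.06, adjusted p = 1.2e-23). All BEZ235 arrays were below the DMSO range of 10.06 to 10.13 and all GDC0941 arrays above it. SQLE, the squalene epoxidase, stood at 8.12, 8.06, 8.01 and 7.82 against 9.42, 9.34, 9.41 and 9.4, again on both sides of DMSO (8.55 to 8.69), a difference of -1.39 (SE 0.06, adjusted p = 3.2e-20). DHCR7, the last enzyme of a branch of cholesterol synthesis, differed by -1.36 (SE 0.1, adjusted p = 7.2e-14).

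STARD4, a carrier of cholesterol between membranes, stood at 5.78, 5.88, 5.89 and 5.72 with BEZ235 and at 7.58, 7.79, 7.61 and 7.59 with GDC0941, a difference of -1.82 (SE 0.08, adjusted p = 1.7e-20). INSIG1, which retains the SREBP precursor in the endoplasmic reticulum, stood at 9.1, 9.38, 9.15 and 9.18 against 10.46, 10.49, 10.57 and 10.42, a difference of -1.28 (SE 0.07, adjusted p = 2.1e-17). Both genes fell against DMSO with BEZ235 and rose with GDC0941, and their groups did not overlap. SREBF2, which encodes the SREBP of sterol synthesis and was picked after its values were seen, had another pattern. It stood at 7.89, 7.7, 7.81 and 7.81 with BEZ235, close to DMSO (7.52 to 7.8), and at 8.9, 8.66, 8.87 and 8.86 with GDC0941. The difference was -1.02 (SE 0.08, adjusted p = 1.6e-13), with a rise of 1.18 with GDC0941 (adjusted p = 2.1e-15) and a change of 0.16 with BEZ235 that was not called (adjusted p = 0.0732).

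**Figure D2:**
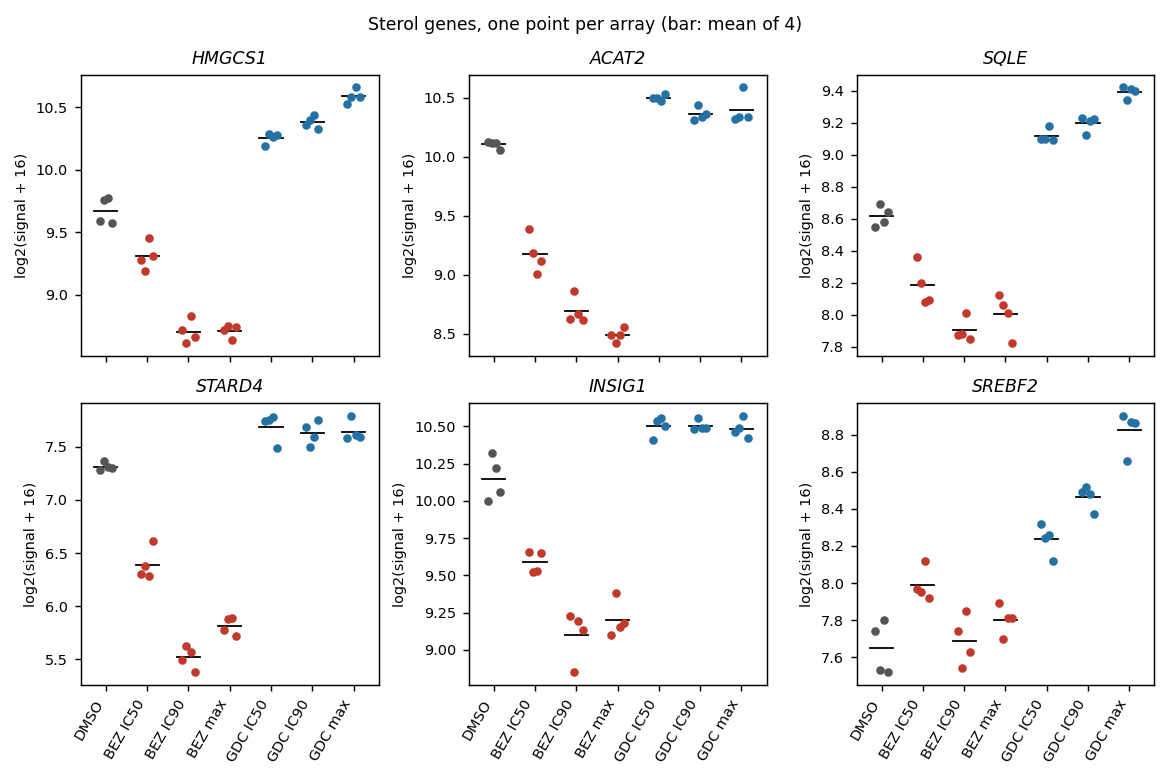
Level of 6 sterol genes, log2(signal + 16), on each of 4 arrays (points) with the group mean (bar), for DMSO and for BEZ235 and GDC0941 at IC50, IC90 and max. All 4 BEZ235 max arrays lie below all 4 GDC0941 max arrays in each panel, HMGCS1 at 8.64 to 8.75 against 10.53 to 10.66, and for SREBF2 the DMSO arrays (7.52 to 7.8) overlap the BEZ235 arrays at IC90 and max and lie below those at IC50.

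Genes of fatty acid and glycerolipid synthesis were also mostly lower with BEZ235: 14 of 26 were lower and 2 higher, with a median difference of -0.28. PNPLA3, a lipase of lipid droplets, differed by -1.08 (SE 0.1, adjusted p = 2.7e-11), and was below DMSO with BEZ235 and above it with GDC0941. ELOVL6, which lengthens saturated fatty acids, stood at 9.18, 9.21, 9.29 and 9.01 with BEZ235 and at 10.2, 10.15, 10.2 and 10.18 with GDC0941. The GDC0941 arrays lay within or next to the DMSO range of 10.13 to 10.24, and the BEZ235 arrays far below it (difference -1.01, SE 0.07, adjusted p = 1.0e-13). ACACA, which makes malonyl-CoA, differed by -0.67, FADS2, a desaturase, by -0.61, and SREBF1, the SREBP gene of fatty acid synthesis, by -0.58 (adjusted p = 9.0e-09, 0.00473 and 0.00229), while a dimmer probe set of ACACA differed by 0.08 with overlapping groups. MFSD2A, a transporter of lysophospholipids, was lower than DMSO with both compounds, at 5.63 to 5.67 with BEZ235 and 6.57 to 6.86 with GDC0941 against 7.94 to 8.13.

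The largest difference among the genes named here lay within the PI3K family itself. PIK3R3, a regulatory subunit of class I PI3K, stood at 5.94, 6.04, 5.68 and 5.5 with BEZ235 and at 8.5, 8.24, 7.97 and 7.95 with GDC0941. The GDC0941 arrays reached into the DMSO range of 8.24 to 8.54, and the BEZ235 arrays were nowhere near it. The difference was -2.37 (SE 0.15, adjusted p = 2.6e-15), a level 5.18-fold higher with GDC0941, and it was -2.38 at IC90 and -1.45 at IC50 (-1.21 without the degraded array). A dimmer probe set differed by -0.56, also with groups apart. Of the 16 tested genes of the PI3K and AKT list, 4 were lower with BEZ235 and 3 higher (median difference -0.15). PHLPP2, a phosphatase that removes phosphate from AKT, was lower (-0.54, SE 0.09, adjusted p = 1.6e-05) and PIK3C2B, a class II PI3K, was lower too (-0.45, SE 0.1, adjusted p = 4.6e-04). PDPK1, the kinase that phosphorylates AKT in its activation loop, was higher by 0.45 (SE 0.06, adjusted p = 6.2e-07), having risen with BEZ235 against DMSO (0.41, adjusted p = 1.1e-06, and -0.04 with GDC0941, adjusted p = 0.681). PIK3R1, another regulatory subunit, fell against DMSO with both compounds, by 0.78 and 0.53, and the difference of -0.25 was just outside the threshold (adjusted p = 0.0516). PIK3R1 was called by limma without the degraded array (adjusted p = 0.00571), on the 8 arrays alone (0.00762) and without GDC0941 replicate 3 (0.0271). Quantile normalization (0.0318) and a replicate block (0.0442) gave a call too. Dimmer PIK3R1 probe sets differed by -0.08 and -0.34 with overlapping groups. PIK3C3, the class III enzyme, was higher by 0.29 on its brightest probe set, while 3 dimmer probe sets went the other way (-0.71, -0.61 and -0.45), so no direction is given for it.

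Among 33 genes of the mTOR complexes and their regulators, 9 were lower with BEZ235 and 5 higher (median difference -0.04). The lower genes included SESN1, SESN2 and SESN3, the sestrins, which restrain mTORC1 when amino acids are scarce. SESN3 stood at 7.33, 7.43, 7.34 and 7.15 with BEZ235 and at 9.21, 9.19, 9.23 and 9.21 with GDC0941, a difference of -1.9 (SE 0.08, adjusted p = 3.2e-20). The GDC0941 arrays were at the lower edge of DMSO (9.23 to 9.57), and 3 far dimmer probe sets above the filter differed by -0.4 to -0.59. SESN1 differed by -0.61 (adjusted p = 4.1e-07) and SESN2 by -0.37 (adjusted p = 0.00149), the latter having fallen against DMSO with both compounds, by 1.1 with BEZ235 and by 0.73 with GDC0941. FNIP2, a partner of folliculin, was lower (-0.41). Higher with BEZ235 were TSC2, an inhibitor of the mTORC1 activator RHEB (0.4, SE 0.1, adjusted p = 0.001), and RRAGD, a GTPase that tethers mTORC1 to the lysosome (0.39, SE 0.12, adjusted p = 0.0124), although a second RRAGD probe set of similar brightness differed by -0.04 with overlapping groups. TSC2 rose against DMSO with both compounds, and its difference was 0.12 (adjusted p = 0.164) when all its probe sets were averaged. DDIT4, which restrains mTORC1 under stress, differed by -0.09 (adjusted p = 0.292).

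For receptors and adaptors the counts were near those of all genes, with 4 of 20 higher and 5 lower (median difference -0.01). PDGFRA, a receptor tyrosine kinase, stood at 5.5, 5.43, 5.29 and 5.55 with BEZ235, inside the DMSO range of 5.43 to 5.78 or just below it, and at 6.38, 6.45, 6.05 and 6.47 with GDC0941. The difference was -0.9 (SE 0.11, adjusted p = 3.9e-08), and 0.02 on a dimmer probe set. IGFBP2, a secreted binding protein of insulin-like growth factors, fell with BEZ235 (by 0.28) and rose with GDC0941 (by 0.58), a difference of -0.86 (SE 0.06, adjusted p = 8.6e-14). FGFR1 was lower (-0.59, adjusted p = 3.9e-06), while dimmer probe sets above the filter differed by -0.32, -0.07 and 0.08 with overlapping groups. KIT was lower too (-0.37, adjusted p = 0.0293, which became 0.0983 without BEZ235 replicate 2, 0.0858 without GDC0941 replicate 1 and 0.0582 without GDC0941 replicate 4). IRS1, the adaptor of insulin and IGF1 receptors, was higher by 0.43 (SE 0.07, adjusted p = 2.5e-06). IRS2 and ERBB3 rose against DMSO with both compounds and differed between them by 0.13 and -0.15, neither called (adjusted p = 0.122 and 0.0608). ERBB3 was called under 6 alternatives, among them without the degraded array (adjusted p = 0.035), without BEZ235 replicate 1 (0.0248) and without GDC0941 replicate 1 (0.0498) or 2 (0.0316). IRS2 was called with probe sets averaged (adjusted p = 0.0236) and without GDC0941 replicate 3 (0.00928), and a second probe set of each gene had groups apart (0.18 for IRS2 and -0.18 for ERBB3).

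FOXO-linked genes were higher than DMSO in most cases with both compounds, 28 of 38 with BEZ235 and 27 with GDC0941. Of all genes tested, 32.7% and 25.5% rose, in the same order. Between the compounds 8 of the 38 were higher with BEZ235 and 7 lower (median difference 0.05). GADD45B, a stress protein, was higher with BEZ235 by 0.86 (SE 0.14, adjusted p = 6.5e-06). TXNIP, an arrestin-domain protein that limits glucose uptake, stood at 10.63, 10.64, 10.59 and 10.66 with BEZ235 and at 10.06, 9.82, 10.06 and 9.88 with GDC0941, against 8.31 to 8.38 with DMSO. All treated arrays were thus far above DMSO, and the difference between the compounds of 0.68 (SE 0.06, adjusted p = 1.8e-12) was smaller than either rise. ARRDC4, its relative, was higher by 0.86 (adjusted p = 3.6e-05), and 4 of 14 arrestin-domain and MondoA-linked genes were higher and 2 lower (median difference 0.01). TRIM63, a ubiquitin ligase and FOXO target of muscle, rose with both compounds and was lower with BEZ235 (-0.6, SE 0.11, adjusted p = 5.1e-05).

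With placeholder symbols left out, the 16 largest differences towards BEZ235 mixed genes that BEZ235 had raised and genes that GDC0941 had lowered. IL24, a cytokine of the IL10 family, stood at 9.63, 9.45, 9.54 and 9.55 with BEZ235 and at 7.75, 7.73, 7.94 and 7.77 with GDC0941, against 6.9 to 7.26 with DMSO. It rose with both compounds, and the difference was 1.75 (SE 0.08, adjusted p = 6.9e-19), a level 3.36-fold higher with BEZ235. DHRS2, a short-chain dehydrogenase, moved apart: 8.4, 8.68, 8.5 and 8.5 with BEZ235 and 6.92, 6.96, 6.51 and 6.71 with GDC0941 around DMSO values of 7.19 to 7.55, a difference of 1.74 (SE 0.1, adjusted p = 2.7e-16). DHRS3, a retinal reductase, fell with both (-1.71 with BEZ235 and -3.31 with GDC0941), and the difference was 1.6 (SE 0.13, adjusted p = 1.7e-12).

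BCAN, a proteoglycan of brain matrix, stood at 8.38, 8.27, 8.24 and 8.24 with BEZ235 and at 6.9, 6.86, 6.79 and 6.92 with GDC0941. Only the BEZ235 arrays lay outside the DMSO range of 6.67 to 6.91 by more than 0.01 (difference 1.42, SE 0.09, adjusted p = 9.0e-15). The rise was seen on 1 probe set. The others of BCAN were below the filter and differed by 0.02, 0.02 and -0.32, the last with groups apart. MYOF, a ferlin of the plasma membrane, rose with BEZ235 (by 0.98) and fell with GDC0941 (by 0.39), a difference of 1.36. IFRD1, a transcription cofactor, SMAGP, a small transmembrane protein, and ZFAND2A, a proteasome-linked protein induced by arsenite, did the same and differed by 1.19, 1.18 and 1.24. LETMD1, a mitochondrial membrane protein, rose with both compounds and differed by 1.19. The other members were ZNF300P1 (1.64), ZNF790-AS1 (1.54), CRIM1-DT (1.42), ANXA2R (1.39), CATSPER1, a sperm calcium channel subunit (1.31), PMS2P4 (1.25) and KRT7, a keratin of simple epithelia (1.24). PMS2P4 is a pseudogene with close copies, so its signal cannot be tied to 1 locus.

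Among the 16 largest differences in the other direction, besides those given above, were several cell surface and neural genes. PCDH7, a protocadherin, stood at 6.8, 6.62, 6.73 and 6.63 with BEZ235 and at 8.67, 8.63, 8.58 and 8.39 with GDC0941, where DMSO was 8.31 to 8.58. The BEZ235 arrays alone lay apart from DMSO, and the difference was -1.87 (SE 0.08, adjusted p = 2.5e-20). PCDH17, another protocadherin, differed by -1.41 (SE 0.12), and its BEZ235 replicate 2, at 4.77, was below the other 3 (5.36 to 5.4). IGSF11, an adhesion molecule, fell with BEZ235 and rose with GDC0941 (difference -1.65, SE 0.07, adjusted p = 1.7e-20), as did HSPA2, a chaperone of the HSP70 family (-1.51, SE 0.09). TSPAN7, a tetraspanin, rose with GDC0941 (1.53) and changed by 0.11 with BEZ235, which was not called (adjusted p = 0.381). STK32A, a kinase, rose with both and stood at 6.1, 5.84, 6.03 and 5.76 with BEZ235, 7.45, 7.38, 7.42 and 7.36 with GDC0941 and 5.25 to 5.75 with DMSO. Their differences were -1.42 and -1.47. ST6GALNAC3, a sialyltransferase, and SLC18A1, a vesicular monoamine transporter, fell with both compounds and more with BEZ235 (differences -1.49 and -1.48).

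**Figure D3:**
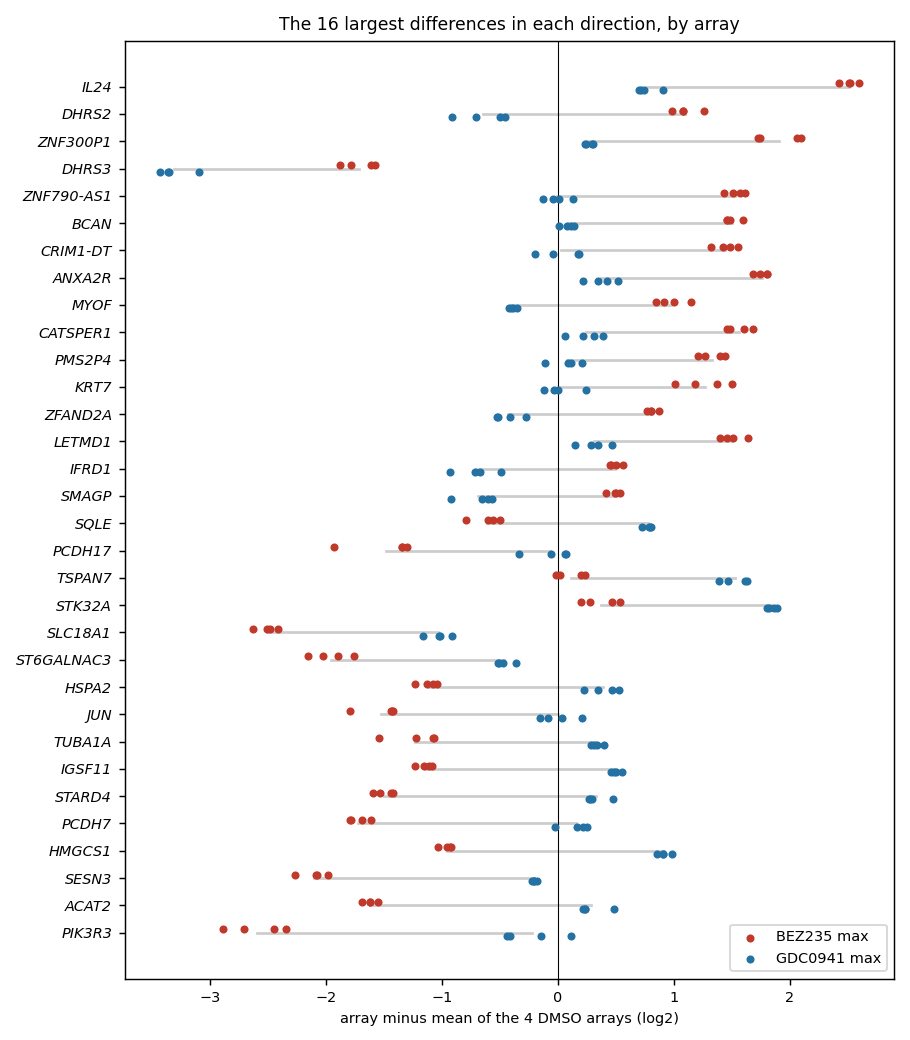
The 16 largest differences in each direction, among called genes with groups that did not overlap and with placeholder symbols left out. Each array at max is drawn as its level minus the mean of the 4 DMSO arrays (log2). Red points are BEZ235, blue points are GDC0941, and a grey line joins the group means. The red and blue points do not overlap in any row. IL24 lies to the right of the DMSO line for both compounds and DHRS3 to the left of it for both, while DHRS2 and HMGCS1 have the compounds on opposite sides.

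Of 30 genes of the unfolded protein response of the endoplasmic reticulum, 13 were lower with BEZ235 and 3 higher (median difference -0.15, and -0.09 when probe sets were averaged). HSPA5, the main chaperone of that compartment, stood at 10.01, 10.02, 9.97 and 9.97 with BEZ235 and at 10.63, 10.54, 10.74 and 10.67 with GDC0941, both below DMSO (10.99 to 11.07). The difference was -0.65 (SE 0.06, adjusted p = 2.5e-11). HYOU1 and SDF2L1, which assist it, differed by -0.76 and -0.72, and CALR, a lectin chaperone, by -0.59. The 3 higher genes were DDIT3, PPP1R15A and ERN1. DDIT3, the stress transcription factor CHOP, stood at 7.33, 7.5, 7.47 and 7.4 with BEZ235 and at 6.44, 6.21, 6.16 and 6.39 with GDC0941, above and below the DMSO range of 6.82 to 7.03 (difference 1.12, SE 0.12, adjusted p = 2.7e-09). PPP1R15A, which directs removal of phosphate from eIF2 alpha, differed by 0.94 (SE 0.08, adjusted p = 1.9e-11) and ERN1, the sensor IRE1, by 0.9 (SE 0.11, adjusted p = 2.0e-08), or 0.03 on a dimmer probe set.

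Of 36 amino acid genes linked to ATF4, 11 were higher with BEZ235 and 9 lower (median difference 0.01). ATF4 itself was higher by 0.52 (SE 0.06, adjusted p = 1.2e-08), having risen with BEZ235 (by 0.29) and fallen with GDC0941 (by 0.23). PSAT1, an enzyme of serine synthesis, fell with both and was lower with BEZ235 (-0.52, SE 0.05, adjusted p = 6.0e-11), as was NUPR1, a stress protein (-0.52, SE 0.14, adjusted p = 0.00275). STC2, a secreted glycoprotein, and ASS1, which makes argininosuccinate, were higher by 0.47 and 0.44. Of 17 aminoacyl-tRNA synthetases, 4 were higher with BEZ235 and none lower by limma (6 and 0 at an unadjusted p under 0.05), against 18.7% and 17.9% of all genes tested. The median difference was 0.16, and 0.08 when probe sets were averaged. At IC90 4 were higher and 0 lower, but at IC50 0 were higher and 3 lower, or 0 and 8 without the degraded array (median difference -0.19). The largest difference at max was in SARS1, the seryl-tRNA synthetase, at 9.84 to 9.87 against 9.42 to 9.47. In that gene GDC0941 was below DMSO (9.69 to 9.9) and BEZ235 was not.

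Genes of ribosome biogenesis were more often higher than lower with BEZ235 (14 and 3 of 50, median difference 0.12). Together 34% of them were called, against 36.6% of all genes tested (18.7% higher and 17.9% lower). NOB1, an endonuclease that completes the small subunit RNA, stood at 9.5, 9.38, 9.38 and 9.52 with BEZ235 and at 8.35, 8.3, 8.38 and 8.31 with GDC0941, the latter close to DMSO (8.15 to 8.38). The difference was 1.11 (SE 0.08, adjusted p = 5.8e-14). POLR1E, a subunit of RNA polymerase I, was higher by 0.83 (SE 0.06, adjusted p = 1.9e-14) and was likewise raised by BEZ235 (0.9), with a change of 0.07 with GDC0941 that was not called (adjusted p = 0.306). Translation factors gave 9 higher and 2 lower of 38 (median difference 0.12), the called differences all between -0.28 and 0.28, among them EIF3G, a subunit of the initiation factor eIF3 (0.28, SE 0.08, adjusted p = 0.00381). None of the 51 cytosolic ribosomal protein genes was called by limma at max (4 higher and 0 lower at an unadjusted p under 0.05), and their median difference of 0.08 ran from 0.03 without GDC0941 replicate 1 to 0.16 without GDC0941 replicate 3 and was 0.02 with quantile normalization. At IC50, 48 of them were higher with BEZ235 (median difference 0.24), and 25 without the degraded array (median difference 0.17).

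Lysosome genes (6 of 52 higher, 9 lower, median difference -0.05) and autophagy genes (9 of 38 higher, 7 lower, median difference -0.03) were near the background of all genes in both directions. CTSK, a cathepsin, was lower with BEZ235 (-0.66, SE 0.07, adjusted p = 9.7e-10), with GDC0941 at 8.46 to 8.56 and both BEZ235 (7.76 to 7.98) and DMSO (7.67 to 7.94) below it. NPC1, which exports cholesterol from lysosomes, was higher by 0.65 (SE 0.1, adjusted p = 3.3e-06), and CTSS, another cathepsin, by 0.57 (SE 0.12, adjusted p = 2.6e-04). A second CTSS probe set of similar brightness differed by 0.2 with overlapping groups, and a dimmer one by 0.45 with groups apart. Of 24 p53 target genes, 11 were lower with BEZ235 and 3 higher (median difference -0.18, and -0.07 without BEZ235 replicate 1). TP53INP1, which acts in p53 signalling and in autophagy, stood at 7.95, 8.17, 8.34 and 8.43 with BEZ235 and at 9.43, 9.55, 9.32 and 9.48 with GDC0941, on either side of DMSO (8.62 to 8.84). The difference was -1.22 (SE 0.1, adjusted p = 8.3e-13). GDF15, a secreted stress factor, differed by -0.79, BAX, a pore-forming protein of apoptosis, by -0.46, and CDKN1A, the inhibitor p21, by -0.4 (adjusted p = 3.7e-06, 2.0e-05 and 0.00198).

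In the BCL2 family, 4 of 18 genes were lower with BEZ235 and 3 higher (median difference -0.04). The anti-apoptotic BCL2 and BCL2A1 differed by -0.49 (SE 0.07, adjusted p = 1.1e-06) and -0.47 (SE 0.06, adjusted p = 9.8e-09), and both had risen with GDC0941. BMF, a pro-apoptotic BH3-only protein, stood at 7.47, 7.24, 7.38 and 7.39 with BEZ235 and at 7.15, 6.92, 7 and 7.04 with GDC0941, all far above DMSO (4.6 to 5.01). Its difference of 0.34 was small beside the rises of 2.55 and 2.21, and the call rested on the setting (adjusted p = 0.0249, 0.094 with 1 added before the logarithm, 0.0702 without BEZ235 replicate 1 and 0.0716 without GDC0941 replicate 2). MCL1 differed by 0.11 (adjusted p = 0.166). BCL2L11, the BH3-only protein BIM, differed by -0.03 (adjusted p = 0.841) on its brightest probe set, while 3 dimmer ones were higher with BEZ235 (0.44, 0.32 and 0.25), so no direction is given.

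Genes of glycolysis and hypoxia were called near the background rate (5 of 36 higher, 6 lower, median difference -0.05). TIGAR, a phosphatase that slows glycolysis, fell with both compounds, by 1.83 with BEZ235 and by 0.69 with GDC0941 (difference -1.14, SE 0.1, adjusted p = 8.1e-12), and ALDOC, an aldolase, was lower (-0.87). VEGFA, the vascular growth factor, stood at 9.4, 8.65, 9.01 and 9 with BEZ235, within or just below the DMSO range of 8.77 to 9.41, and at 8.28, 8.12, 8.53 and 7.76 with GDC0941. It differed by 0.84 (SE 0.18, adjusted p = 3.6e-04), and PFKFB4, which controls fructose bisphosphate, by 0.76 (SE 0.13, adjusted p = 1.3e-05).

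Both compounds lowered most mitosis genes, 59 of 76 with BEZ235 and 67 with GDC0941 (25.2% and 18.4% of all genes tested fell). Between them 15 were higher with BEZ235 and 5 lower (median difference 0.07), against 18.7% and 17.9% of all genes tested. The direction was the other at the lower levels, with 6 higher and 24 lower at IC90 and 4 and 20 at IC50 (median differences -0.09 and -0.1). CDCA5, a protector of sister chromatid cohesion, was higher at max by 0.4 (SE 0.07, adjusted p = 1.2e-05) and KIF15, a spindle motor, by 0.39 (SE 0.08, adjusted p = 8.1e-05), while PIMREG was lower (-0.35). At IC50 CDCA5 was lower with BEZ235 (-0.25, adjusted p = 0.00416). Of 63 DNA replication genes 8 were higher and 16 lower (median difference -0.04), with ASF1B, a histone chaperone, at -0.58 and TK1, the thymidine kinase, at -0.51 (adjusted p = 2.1e-05 and 7.5e-05).

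In the control of G1 to S, 11 of 31 genes were lower with BEZ235 and 4 higher (median difference -0.07). CDC25A, the phosphatase that activates CDK2, stood at 7.67, 7.72, 7.67 and 7.61 with BEZ235 and at 8.35, 8.27, 8.28 and 8.35 with GDC0941, both below DMSO (9.28 to 9.34). The difference was -0.64 (SE 0.06, adjusted p = 2.0e-11). CCND3, a cyclin of G1, differed by -0.78 (SE 0.11) and SKP2, which marks p27 for degradation, by -0.62 (SE 0.11), with adjusted p = 9.4e-07 and 1.9e-05. A brighter SKP2 probe set of a design that cross-hybridises and a dimmer one each differed by -0.25 with overlapping groups. RB1, the retinoblastoma protein, was the highest with BEZ235: 9.02, 9.18, 9.11 and 9.09 against 8.19, 8.48, 7.95 and 8.31, the latter around DMSO (8.1 to 8.3; difference 0.87, SE 0.09, adjusted p = 8.7e-10). CCND1, another G1 cyclin, was higher by 0.3 (adjusted p = 0.0206) with overlapping groups, and lost its call without BEZ235 replicate 1 or 4 or GDC0941 replicate 1 or 2 (adjusted p = 0.0514, 0.0799, 0.0559 and 0.0678). A dimmer probe set of CCND1 differed by 0.78 with groups apart.

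Tubulin genes fell with both compounds (12 of 15 with BEZ235 and 11 with GDC0941, against 25.2% and 18.4% of all genes tested). Between the compounds 6 were lower with BEZ235 and 3 higher (median difference -0.06, and -0.4 at IC90). TUBA1A, an alpha tubulin of neural cells, went against the list with GDC0941: it stood at 10.12, 10.14, 10.2 and 10.09, above DMSO (9.7 to 9.85), and at 8.74, 8.58, 8.73 and 8.26 with BEZ235. The difference was -1.56 (SE 0.13, adjusted p = 1.7e-12). TUBB4A and TUBB2B, beta tubulins, differed by -0.56 and -0.43 (adjusted p = 7.9e-05 for each). Tubulin genes have close copies, and signal shared between them cannot be told apart here.

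Melanocyte lineage genes were lower with BEZ235 in 17 of 30 cases and higher in 1 (median difference -0.29). Against DMSO 23 of them rose with GDC0941 and none fell (26 and 0 by limma at an unadjusted p under 0.05), while 14 rose and 5 fell with BEZ235. Of all genes tested, 25.5% rose with GDC0941 and 32.7% with BEZ235. The lower levels did not share the difference at max. Between the compounds 5 were higher with BEZ235 and 9 lower at IC90 (median difference -0.04). These numbers were 10 and 6 at IC50 (median difference 0.07), and 6 and 6 there without the degraded array. ST8SIA1, which makes the ganglioside GD3, stood at 6.23, 6.22, 6.16 and 6.19 with BEZ235 and at 7.47, 7.47, 7.42 and 7.53 with GDC0941, the latter overlapping DMSO (7.47 to 7.61). The difference was -1.27 (SE 0.09, adjusted p = 2.7e-14). S100B, a calcium-binding protein of neural crest cells, was lower (-0.86, SE 0.06, adjusted p = 7.2e-15), again with GDC0941 at the DMSO level. TRPM1, a cation channel, and GPM6B, a membrane glycoprotein, rose with both compounds and were lower with BEZ235 (-0.83 and -0.74). ABCB5, a transporter, was the exception, higher with BEZ235 by 0.73 (SE 0.15, adjusted p = 1.6e-04).

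Genes of melanoma dedifferentiation went the other way in 10 of 22 cases, with 4 lower (median difference 0.22, and 0.07 with no filter on dim genes). NGFR, a neurotrophin receptor of neural crest-like melanoma cells, stood at 7.61, 7.29, 7.04 and 7.29 with BEZ235, on both sides of the DMSO range (7.41 to 7.53), and at 6.46, 6.54, 6.03 and 6.19 with GDC0941. The difference was 1 (SE 0.14, adjusted p = 2.4e-07). WNT5A, a ligand of non-canonical Wnt signalling, was higher by 0.75 and NT5E, the ecto-enzyme CD73, by 0.56 (adjusted p = 1.3e-05 and 2.4e-07). JUN was the largest of the 4 that were lower, at 5.18, 5.19, 4.83 and 5.2 against 6.66, 6.83, 6.54 and 6.47, the latter around DMSO (6.56 to 6.74; difference -1.52, SE 0.12, adjusted p = 2.7e-13).

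Output genes of MAPK signalling were higher with BEZ235 in 16 of 36 cases and lower in 6 (median difference 0.2), and YAP and TEAD targets in 10 and 4 of 23 (median difference 0.25). EPHA2, an ephrin receptor, rose with BEZ235 (by 0.36) and fell with GDC0941 (by 0.52), a difference of 0.88 (SE 0.1, adjusted p = 1.7e-08). LIF, a cytokine, KLF4, a transcription factor, and FOSL1, a partner of JUN, were higher by 0.61, 0.55 and 0.55. A dimmer KLF4 probe set differed by 0.2 with overlapping groups. EGR1, a transcription factor of the early growth response, rose with both and was lower with BEZ235: 9.03, 8.73, 8.83 and 8.75 against 9.4, 9.33, 9.58 and 9.56 (difference -0.63, SE 0.08, adjusted p = 1.6e-08). Of the matricellular YAP targets, CCN1 was higher by 0.55 (SE 0.12, adjusted p = 3.6e-04) and CCN2 lower (-0.56, SE 0.13, adjusted p = 8.4e-04), and AJUBA, a LIM protein, was higher by 0.57. Matrix and integrin genes divided into 8 higher and 12 lower of 40 (median difference -0.1, and 0 with no filter on dim genes). The integrin chains ITGA2 and ITGA3 were higher by 0.7 and 0.55, and COL1A1, a chain of type I collagen, was lower (-0.72, adjusted p = 5.2e-07, 1.8e-06 and 1.9e-04). Dimmer COL1A1 probe sets above the filter differed by -0.48 with groups apart and by 0.01 with overlapping groups.

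NF-kB and cytokine genes were higher with BEZ235 in 11 of 22 cases and lower in none by limma (15 and 0 at an unadjusted p under 0.05), with a median difference of 0.32 (0.2 with 64 added before the logarithm). Against DMSO, 13 fell and 2 rose with GDC0941 (median change -0.49), and 8 rose and 5 fell with BEZ235 (median change -0.08). Of all genes tested, 18.4% fell with GDC0941 and 25.2% with BEZ235. IL6 stood at 6.61, 6.37, 6.29 and 6.69 with BEZ235, near DMSO (6.15 to 6.61), and at 5.76, 5.67, 5.6 and 5.73 with GDC0941. The difference was 0.8 (SE 0.12, adjusted p = 2.1e-06). PTGS2, the inducible cyclooxygenase, was higher by 0.69 (SE 0.09, adjusted p = 4.8e-08) with the same pattern, and CCL20, a chemokine, by 0.68 (SE 0.12, adjusted p = 1.3e-05). TNFAIP2, a gene induced by tumour necrosis factor, was instead raised by BEZ235 (0.51) and differed by 0.6.

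Interferon-stimulated genes were higher with BEZ235 in 16 of 43 cases and lower in 3 (median difference 0.22, and 0.05 with no filter on dim genes). OAS3, an antiviral synthetase, stood at 6.77, 6.66, 6.71 and 6.89 with BEZ235 and at 6.04, 5.9, 5.97 and 5.91 with GDC0941, where DMSO was 5.52 to 5.92. The difference was 0.8 (SE 0.11, adjusted p = 1.1e-07). IFIH1, a sensor of double-stranded RNA, and IFI44 were higher by 0.69 and 0.63, whereas GBP2, a guanylate-binding protein, was lower (-1.3, SE 0.09, adjusted p = 5.0e-14) and so was IFITM1, a membrane protein that blocks viral entry (-0.71). Antigen presentation genes gave 11 higher and 2 lower of 25 (median difference 0.2): TAP2, the peptide transporter, was higher by 0.64, HLA-E by 0.49, PSMB9, a subunit of the immunoproteasome, by 0.44 and CD74, the invariant chain, by 0.41 (adjusted p = 2.8e-09, 8.7e-08, 1.5e-04 and 6.2e-04).

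**Figure D4:**
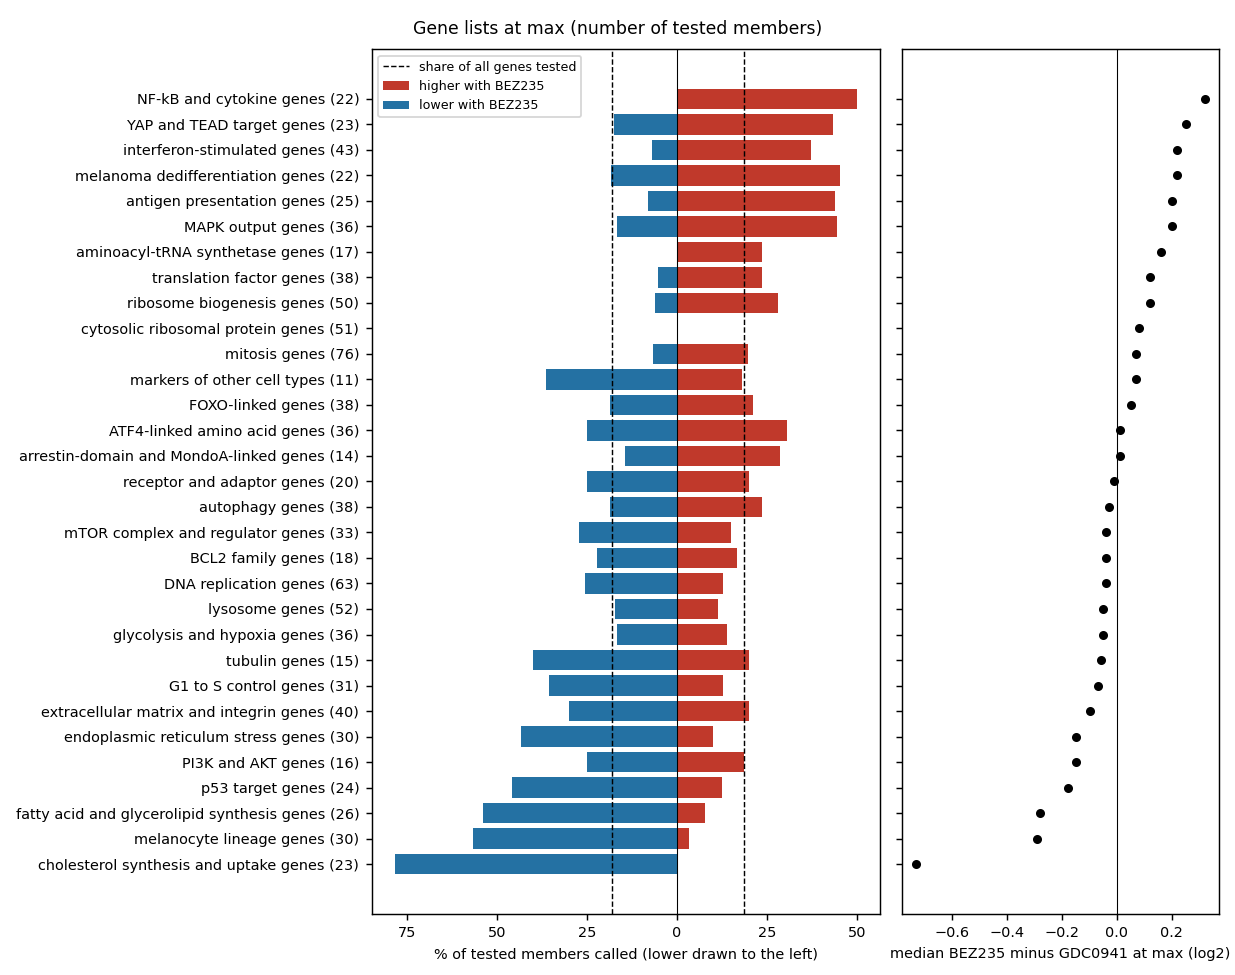
For each of 31 gene lists, the percentage of tested members higher (red) or lower (blue, drawn to the left) with BEZ235 at max, with dashed lines at the shares of all genes tested (18.7% and 17.9%), and on the right the median difference (log2). The cholesterol list lies at the bottom with a median of -0.73 and the NF-kB and cytokine list at the top with 0.32, and ribosomal protein genes have no bar.

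The change of the difference from IC90 to max was tested as an interaction, which was called for 366 genes (3.08%), 211 with a shift towards BEZ235 (1.78%) and 155 away from it (1.31%). Without the degraded array of BEZ235 at IC50, which lies outside this contrast and enters through the pooled variance, 814 genes were called. The largest shifts downward were in CCN2 (-1.19, adjusted p = 1.6e-04), SLITRK6 (-1.02, adjusted p = 1.2e-04), MLPH (-1, adjusted p = 0.0177), JUN (-0.94, adjusted p = 5.0e-04) and EGR1 (-0.87, adjusted p = 5.2e-06). CCN2 was higher with BEZ235 at IC50 (0.93) and IC90 (0.63) and lower at max (-0.56), and EGR1 likewise (1.04, 0.23 and -0.63), each called at all 3 levels. SLITRK6, a neural membrane protein, differed by 0.92 at IC90 and by -0.1 at max (adjusted p = 0.532), where replicates stood at 7.03, 6.77, 6.96 and 6.94 against 7.31, 6.94, 6.9 and 6.93. MLPH, which links melanosomes to myosin, was lower with BEZ235 at max (-0.59, adjusted p = 0.00783) and differed by 0.41 at IC90 (adjusted p = 0.0549).

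The largest shifts upward were in KCNG4, a potassium channel subunit (0.99, adjusted p = 3.0e-05), MFSD2A (0.98, adjusted p = 2.4e-05), DNM3, a dynamin (0.9, adjusted p = 2.8e-04), CCL20 (0.89, adjusted p = 9.6e-04) and NR2F1-AS1 (0.86, adjusted p = 5.3e-04). KCNG4 and MFSD2A were lower with BEZ235 at all 3 levels and least so at max (-1.42, -1.64 and -0.65, and -1.44, -2.06 and -1.08). DNM3 was level at IC90 (0, adjusted p = 0.987) and higher with BEZ235 at max: 6.64, 6.43, 6.46 and 6.5 against 5.68, 5.72, 5.51 and 5.52. NR2F1-AS1 was lower with BEZ235 at IC50 (-0.69) and higher at max (0.69).

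**Figure D5:**
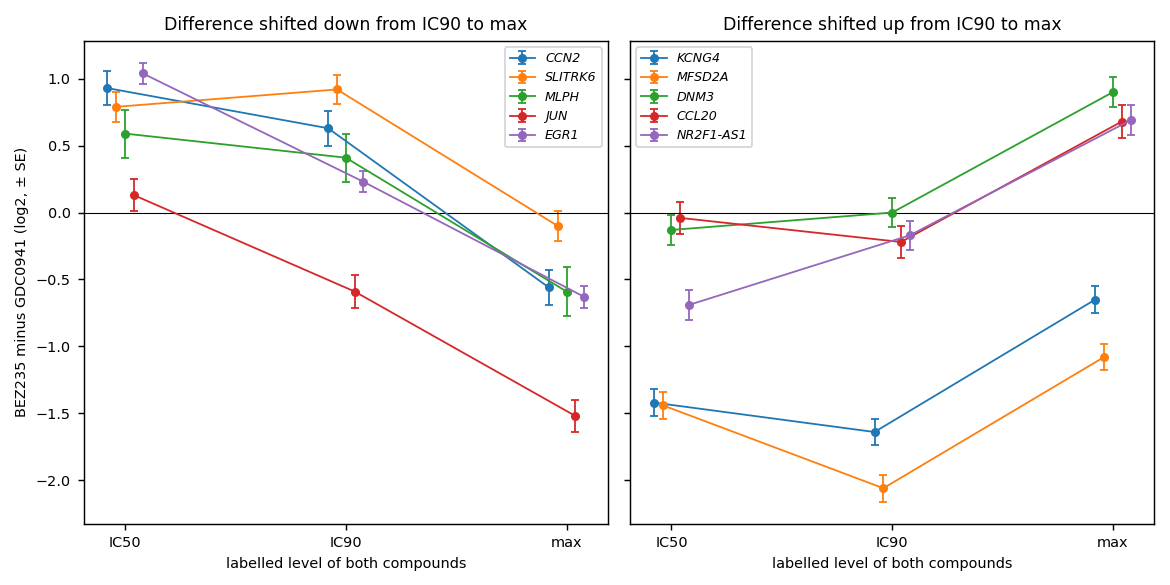
BEZ235 minus GDC0941 (log2, points with SE bars) at the levels labelled IC50, IC90 and max for the 5 genes with the largest shift down (left) and the 5 with the largest shift up (right) from IC90 to max. CCN2 and EGR1 cross the line at 0 between IC90 and max, and KCNG4 and MFSD2A stay below it.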

How the data were processed

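RNA from 40 cultures was amplified from 50 ng and hybridised to 1-colour arrays with 54675 probe sets, per the labels' protocols. The deposited values are linear intensity values, made with MAS5 per the submitters' processing notes (its version is not stated in these sources). Without its highest and lowest 2%, every array averaged 150, the mark of a single scaling factor per array. Arrays carry no read depth, and 4 per group limit the precision.

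Of the probe sets, 41091 carried 1 symbol, 1801 several and 11721 none, besides 62 controls. Each of 19775 genes was represented by its brightest probe set, designs that cross-hybridise being used only without another, and the 11865 above the 40th percentile of signal were tested. Values became log2(value + 16) and were fitted in limma 3.58.1 (R 4.3.3) with a mean for each of 10 groups over 40 arrays (30 residual degrees of freedom) and a variance trend; p-values were adjusted by Benjamini-Hochberg within each comparison. The fit was tested on simulated data. The 31 lists (1158 places, 997 tested) are described by counts and medians. The comparison and the lists were chosen with earlier results of these data known. Placeholder symbols (LOC, open reading frame, FAM, KIAA, LINC, MIR and clone names) were left out before genes were ranked. Among the others with an adjusted p under 0.05 and groups that did not overlap, those named were the 16 largest in each direction, and the 6 largest of a list. Also named were the 5 largest interactions in each direction and, called or not, members of the PI3K, mTOR, receptor, G1 to S, BCL2 and tubulin lists. The alternatives were another constant, filter, normalization, probe set rule, set of arrays or variance prior, a replicate block and leaving out each array.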

Additional observations from a re-analysis of the deposited data

Results flagged for a closer look

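Among the 145 genes named, 290 groups of 4 arrays were examined at max, and in 17 of them (5.86%) a single array lay far from the other 3, against about 1 in 20 that chance gives. In GDC0941 replicate 3 these were ACAT2 (10.59, others 10.32 to 10.34), PIK3R1 (8.78, others 8.99 to 9.02), ATF4 (11.09, others 10.83 to 10.86), EIF3G (10.22, others 10.02 to 10.06), CDKN1A (7.8, others 7.66), AJUBA (6.93, others 7.29 to 7.34), CALR (8.04, others 8.47 to 8.55) and ERN1 (7.45, others 7.83 to 7.89). In GDC0941 replicate 2 they were SREBF2 (8.66, others 8.86 to 8.9), PHLPP2 (7.14, others 7.25 to 7.28) and BAX (9.13, others 9.3 to 9.32), and in replicate 1 SLITRK6 (7.31, others 6.9 to 6.94). In BEZ235 replicate 3 they were TUBB2B (7.6, others 7.81 to 7.84), JUN (4.83, others 5.18 to 5.2), CCN2 (7.79, others 7.85 to 7.86) and PPP1R15A (7.59, others 7.65 to 7.66), and in BEZ235 replicate 2 PCDH17 (4.77, others 5.36 to 5.4). GDC0941 replicate 3 was also the array least like its own group, with a mean correlation of 0.9923.

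The difference between the compounds was not the same at IC90 and at max, by the interaction test with an adjusted p under 0.05, in 37 of the named genes. It shifted towards BEZ235 at max in KCNG4 (0.99), MFSD2A (0.98), DNM3 (0.9), CCL20 (0.89), NR2F1-AS1 (0.86), NGFR (0.83), TUBB2B (0.73), DHRS2 (0.67), PTGS2 (0.66), CALR (0.66), DDIT3 (0.6), CDCA5 (0.55), KLF4 (0.55), CDKN1A (0.52), IL24 (0.49), ZFAND2A (0.48), ANXA2R (0.45), CDC25A (0.45), SESN2 (0.45), IFI44 (0.38) and HSPA5 (0.31). It shifted towards GDC0941 in CCN2 (-1.19), SLITRK6 (-1.02), MLPH (-1), JUN (-0.94), EGR1 (-0.87), TSPAN7 (-0.81), STK32A (-0.78), BMF (-0.78), GDF15 (-0.71), IGSF11 (-0.64), TRIM63 (-0.62), TXNIP (-0.6), PCDH7 (-0.59), GPM6B (-0.46), SESN3 (-0.44) and IGFBP2 (-0.38). The adjusted p was closest to the threshold for SESN2 (0.0498), DDIT3 (0.048), CDKN1A (0.0401) and IFI44 (0.0401).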

How the results depend on the processing

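Leaving out 1 array at a time gave 3878 to 4139 genes called at max and 260 to 314 for the change from IC90 to max. Genes at least 2-fold apart numbered 268 with 1 and 36 with 64 added before the logarithm, 77 with probe sets averaged and 58 above the 60th percentile of signal, where fewer genes were tested and 1477 were higher with BEZ235. There the change from IC90 to max was called for 239 genes (131 towards BEZ235), and without the degraded array for 814 (442 and 372). BEZ235 at IC50 against GDC0941 at max differed in 2470 genes (1199 higher, 1271 lower, 22 at least 2-fold), and BEZ235 at IC90 in 3594, 46 of them at least 2-fold. The same replicate numbers did not pair the arrays: deviations of same-numbered arrays correlated at 0, 0.27, -0.06 and 0.06, and with a replicate block 4312 genes were called, PIK3R1 among them (adjusted p = 0.0442).

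List medians moved by more than the spread between arrays as follows. With 1 added, cholesterol gave -0.8, NF-kB 0.45, interferon 0.25 and other cell types 0.13. With 64, cholesterol gave -0.56, melanocyte -0.21, fatty acid -0.2, matrix -0.05, NF-kB 0.2, YAP 0.2, MAPK 0.16 and interferon 0.11. With no filter, cholesterol gave -0.65, dedifferentiation 0.07, interferon 0.05, other cell types 0.01 and matrix 0. Above the 60th percentile, cholesterol gave -0.65, other cell types -0.38, p53 -0.24, fatty acid -0.21, BCL2 -0.15, matrix 0, receptors 0.02, interferon 0.03, mTOR 0.05, dedifferentiation 0.14 and NF-kB 0.45. With probe sets averaged, cholesterol gave -0.65, endoplasmic reticulum -0.09, mTOR -0.08, matrix -0.04, BCL2 0.01, other cell types 0.01, tRNA synthetases 0.08, MAPK 0.13 and YAP 0.19. Without single arrays the medians ran from 0.19 to 0.24 (antigen presentation), -0.01 to 0.01 (ATF4), -0.06 to 0 (autophagy), -0.18 to -0.12 (endoplasmic reticulum), -0.1 to -0.04 (matrix), -0.33 to -0.23 (fatty acid), -0.1 to -0.03 (G1 to S), 0.18 to 0.22 (interferon and MAPK), 0.01 to 0.1 (other cell types), -0.07 to -0.01 (mTOR), 0.29 to 0.39 (NF-kB), -0.23 to -0.07 (p53), -0.03 to 0 (receptors) and 0.18 to 0.26 (YAP).

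Of the named genes, the sign turned for PIK3C3 (-0.22) and BCL2L11 (0.19) with probe sets averaged, and without single arrays the difference ran up to 0 for BCL2L11 and from -0.14 to 0 for SLITRK6 (0 without GDC0941 replicates 4 and 1, respectively). The cause was not tested. Dim genes carry the least signal over background, and their folds depend most on the added constant.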
